A study of Mus musculus with 23 samples.

Results

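Hsd3b6 and 7 further genes of steroid hormone synthesis (Hsd3b1, Star, Cyp11a1, Cyp17a1, Nr5a1, Mc2r and Fdx1) were followed by RNA-seq in 23 whole mouse embryos. All 8 symbols were found among the 26183 gene symbols of the deposited count tables. Hsd3b6 was chosen by its higher counts in some M-Z- embryos of these same tables, so how far it differed there is described and not tested. The 7 others were chosen by name, with earlier results of these data known. They served to ask whether steroid genes of the adrenal gland and the gonads rose with Hsd3b6.

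The embryos were 129/DBA hybrids at E13.5, and each gave 1 library from the whole embryo. In M+Z+ embryos Zfp57, which encodes a zinc finger protein that maintains DNA methylation at imprinted regions, was present in both the oocyte and the embryo. The labels give these embryos the genotype Zfp57-/+. M-Z+ embryos (also Zfp57-/+) came from oocytes lacking Zfp57 and carried a paternal copy, and M-Z- embryos (Zfp57-/-) lacked both. There were 6 M+Z+, 3 M-Z+ and 4 M-Z- females and 4 M+Z+, 3 M-Z+ and 3 M-Z- males. Mothers were of the 129 strain and fathers mainly of the DBA/2J background in all groups, with no reciprocal cross. The zygotic loss cannot be told apart from the loss in both oocyte and embryo, since no M+Z- embryo is analysed here.

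Total counts per embryo ranged from 15.2 to 24.1 M. Values are in CPM, the reads of a gene scaled to the total of its library. A count of 3, taken as the limit that a count of 0 allows, came to between 0.125 and 0.198 CPM. Zfp57 lay between 25.5 and 35.3 CPM in the 7 M-Z- embryos and between 52.7 and 99.1 CPM in the 10 M+Z+ embryos. The M-Z- embryos stood apart in the direction of their label, and the tables do not say which exons the remaining reads came from. Male M-Z- replicate 2 stood far from every other library in Hsd3b6 and in the embryonic globins described below, and the values it moved most are also given without it.

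Steroid hormones are made from cholesterol. Star carries cholesterol into the mitochondrion, where Cyp11a1 cuts its side chain with electrons passed on by ferredoxin (Fdx1). The 3-beta-hydroxysteroid dehydrogenases (Hsd3b genes) then turn pregnenolone into progesterone and related steroids, and Cyp17a1 opens the branch to androgens and, in many species, cortisol. Nr5a1 (steroidogenic factor 1) is the transcription factor that marks adrenal and gonadal steroid cells, and Mc2r is the adrenal receptor for ACTH. In the mouse, Hsd3b1 is the main form in adrenal and gonad, whereas Hsd3b6 is known from trophoblast giant cells, adult Leydig cells and the outer zone of the adrenal cortex.

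In mm9 coordinates of the deposited tables, Hsd3b6 lies on the minus strand of chromosome 3 from 98609427 to 98618366, with 4 exons of 1802 bases in all. Hsd3b1 lies beside it from 98656117 to 98663717 (exon length 1855 bases). Of the 1606 different 50-base words in Hsd3b6 exons, 27 (1.68%) also occur in Hsd3b1 exons. With Hsd3b2 to Hsd3b5 included, 240 (14.9%) are shared with at least 1 of these 5 genes. Only uniquely aligned reads were counted, so reads that fall wholly in shared stretches may be missing from Hsd3b6 and its copies. The start-site windows of Hsd3b6 and Hsd3b1 are shown because these 2 neighbours differed in how they varied over the embryos. Those of Hbb-y and Hba-x are shown because these embryonic globins varied most closely with Hsd3b6 among the genes found in the table. Each window runs from 250 bases before to 50 bases after the start site (RefSeq, build GRCm38.p6, 5′ to 3′ on the gene's strand). Of the 8 steroid genes, 4 were in the table, and Hbb-bh1 was not used. Capitals mark the word AGATAA or AGATAG, or else the word TGATAA or TGATAG, on either strand, written here as forms of the GATA factor motif. The windows are Hsd3b6 at chr3:98814394-98814693, Hsd3b1 at chr3:98859745-98860044, Hbb-y at chr7:103853158-103853457 and Hba-x at chr11:32276350-32276649.
Hsd3b6: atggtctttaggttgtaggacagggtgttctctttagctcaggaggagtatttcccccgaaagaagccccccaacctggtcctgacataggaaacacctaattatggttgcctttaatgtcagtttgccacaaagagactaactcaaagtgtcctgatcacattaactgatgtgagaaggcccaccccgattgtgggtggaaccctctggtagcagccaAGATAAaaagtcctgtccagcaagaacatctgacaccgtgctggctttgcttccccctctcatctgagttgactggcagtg
Hsd3b1: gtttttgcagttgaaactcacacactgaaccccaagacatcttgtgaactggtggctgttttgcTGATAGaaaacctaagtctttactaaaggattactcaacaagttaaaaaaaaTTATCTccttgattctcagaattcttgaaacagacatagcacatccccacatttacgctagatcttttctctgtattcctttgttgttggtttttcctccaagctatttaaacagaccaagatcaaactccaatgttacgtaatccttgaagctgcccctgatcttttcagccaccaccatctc
Hbb-y: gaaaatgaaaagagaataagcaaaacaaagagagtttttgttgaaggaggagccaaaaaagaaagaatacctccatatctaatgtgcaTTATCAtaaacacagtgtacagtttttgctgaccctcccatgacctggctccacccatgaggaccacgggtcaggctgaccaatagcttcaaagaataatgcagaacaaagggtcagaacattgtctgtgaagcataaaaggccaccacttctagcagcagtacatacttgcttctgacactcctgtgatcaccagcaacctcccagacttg
Hba-x: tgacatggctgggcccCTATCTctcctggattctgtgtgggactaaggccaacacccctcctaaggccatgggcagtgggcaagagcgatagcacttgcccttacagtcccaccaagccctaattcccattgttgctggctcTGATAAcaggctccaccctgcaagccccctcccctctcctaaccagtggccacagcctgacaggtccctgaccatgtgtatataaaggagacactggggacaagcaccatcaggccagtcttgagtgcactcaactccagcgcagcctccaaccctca
Hsd3b6 held 1 such word (AGATAA, its first base at -31 from the start site), Hsd3b1 held 2, Hbb-y held 1 and Hba-x held 2. At least 1 of these words occurred in 29.8% of the 32817 windows of the table, so their presence does not set these 4 apart. None of the 4 held CAAGGTCA or CAAGGCCA on either strand, words bound by Nr5a1, which occurred in 3.92% of all windows.

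Hsd3b6 varied 44.1-fold over the 23 embryos, from 5.11 CPM in male M+Z+ replicate 3 to 226 CPM in male M-Z- replicate 2. In female M+Z+ embryos the lowest value was 5.81, the median 10.4 and the highest 39.8 CPM. The 4 female M-Z- embryos had 28.5, 38.2, 52.1 and 25.0 CPM. Of these, 1 was above every female M+Z+ embryo, because female M+Z+ replicate 4 alone reached 39.8 CPM. In males, the 4 M+Z+ embryos had 15.3, 16.7, 5.11 and 11.8 CPM, and the 3 M-Z- embryos had 64.2, 226 and 20.1 CPM. All 3 male M-Z- embryos were above every male M+Z+ embryo, which held for 4.41% of all tested genes, the third by little. The M-Z+ embryos had 17.0, 16.5 and 28.1 CPM in females and 11.7, 13.3 and 17.4 CPM in males. They overlapped the M+Z+ embryos of their sex, and the male at 17.4 CPM was just above the highest male M+Z+ embryo.

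The mean of M-Z- over that of M+Z+ was 2.29-fold in females (36.0 ± 12.2 CPM, SD, n = 4, against 15.7 ± 13.1 CPM, n = 6). It was 8.44-fold in males (103 ± 108 CPM, n = 3, against 12.2 ± 5.18 CPM, n = 4). Without male M-Z- replicate 2 the male value was 3.44-fold, so that 1 embryo carried most of the size of the male difference. As fitted by edgeR, the log2 change was 1.18 ± 0.39 (SE) in females and 3.15 ± 0.61 in males, and 2.12 ± 0.44 with the sexes together. Without male M-Z- replicate 2 it was 1.77 ± 0.38 in males and 1.40 ± 0.31 together. In whole embryos, a larger number of cells of a type and more RNA per cell cannot be told apart.

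**Figure D1:**
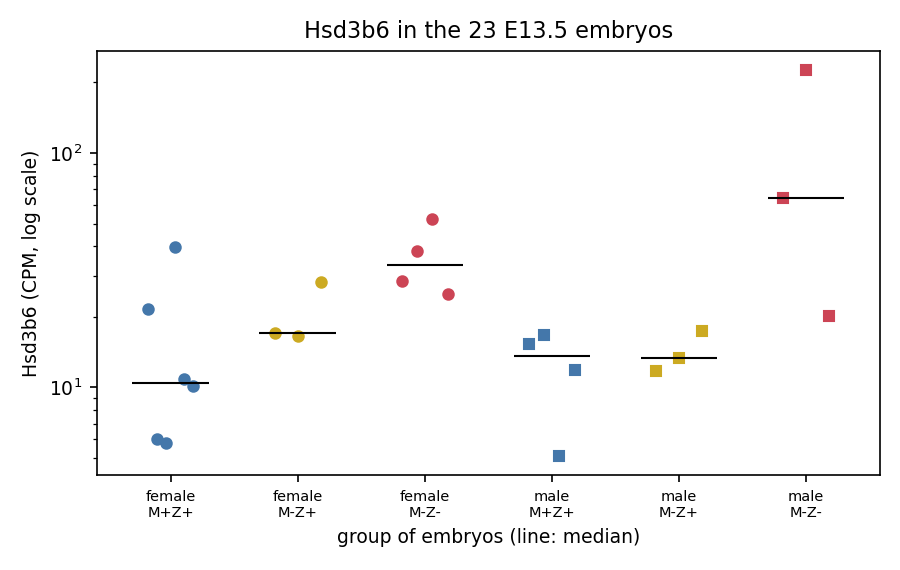
Hsd3b6 in CPM (log axis) in each embryo of the 6 groups; circles are females, squares are males and lines are group medians. The male M-Z- embryos spread from 20.1 to 226 CPM, and 1 female M+Z+ embryo, at 39.8 CPM, lies among the female M-Z- embryos.

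Whether the other steroid genes rose along with Hsd3b6 was asked by setting M-Z- beside M+Z+ embryos. None of them was called by edgeR's quasi-likelihood test (adjusted p under 0.05 over all tested genes and a log2 change of at least 0.5) in females, in males or with the sexes together. The members called numbered 0 of the 5 tested in females, where 0.563% of all 16871 tested genes were called. They numbered 0 of 6 in males, where 0.39% of 16664 genes were called, and 0 of 7 with the sexes together, where 2.19% of 17139 genes were called. At an unadjusted p below 0.05 the counts were 0, 1 and 0, beside 15.5%, 17.0% and 25.4% of all tested genes. DESeq2's Wald test called 0 in each. The counts of Cyp17a1 in females and of Mc2r in either sex alone were too low to be tested. The median log2 change of the tested members was 0.02 in females, -0.07 in males and -0.04 together, beside medians of 0.00 over all tested genes.

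Of the enzymes, Hsd3b1 is the neighbour of Hsd3b6 and carries out the same reaction. It had 5.24, 2.84, 3.65 and 5.49 CPM in female M-Z- embryos, and the female M+Z+ embryos ran from 3.69 through a median of 4.47 to 6.73 CPM. Males had 4.28, 5.38 and 9.14 CPM in M-Z- and 4.69, 4.59, 7.96 and 5.59 CPM in M+Z+ embryos. The groups overlapped in both sexes. The male M-Z- embryo with the highest Hsd3b1 was replicate 3, which had the lowest Hsd3b6 of its group. The log2 change with the sexes together was -0.04 ± 0.18 (SE, adjusted p 0.918 by edgeR). Per kilobase of exon, Hsd3b6 averaged 7.94 ± 5.77 CPM (SD, n = 10) and Hsd3b1 2.83 ± 0.754 CPM in M+Z+ embryos. The 7 M-Z- embryos averaged 36.0 ± 40.3 for Hsd3b6 and 2.77 ± 1.09 for Hsd3b1 on this scale (SD, n = 7).

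Hsd3b2, Hsd3b3 and Hsd3b5 did not exceed 0.368 CPM in any embryo and Hsd3b4 had 0 counts in all 23. Hsd3b7, an enzyme of bile acid synthesis, lay between 10.5 and 17.2 CPM. Of this family, Hsd3b1 and Hsd3b7 could be tested beside Hsd3b6, and edgeR and DESeq2 called 0 of the 2 in each of the 3 comparisons, with 0 at an unadjusted p below 0.05. Over all tested genes edgeR called 0.563% in females, 0.39% in males and 2.19% together, so a count of 0 of 2 is near the background.

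Cyp11a1, the side-chain cleavage enzyme, had 1.32, 1.83 and 2.27 CPM in male M-Z- embryos and 2.12, 2.33, 3.31 and 2.82 CPM in male M+Z+ embryos. In females it had 1.71, 0.683, 1.03 and 1.68 CPM in M-Z- embryos, 1 of them below the M+Z+ range of 0.78 to 2.75 CPM (median 1.44). The groups overlapped, and the log2 change together was -0.36 ± 0.22 (SE, adjusted p 0.319 by edgeR). Its point estimate is thus on the opposite side of 0 from that of Hsd3b6.

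Star, the cholesterol carrier, had 2.69, 1.84, 2.57 and 3.26 CPM in female M-Z- embryos while female M+Z+ embryos ran from 1.67 to 2.94 CPM (median 2.15). Males had 3.21, 1.71 and 2.58 CPM in M-Z- and 2.04, 3.06, 3.14 and 2.42 CPM in M+Z+ embryos. In the embryo with 226 CPM of Hsd3b6, Star was at 1.71 CPM, rank 21 of 23. Its log2 change together was 0.12 ± 0.18 (SE, adjusted p 0.716 by edgeR).

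Fdx1 is used by mitochondrial P450 enzymes and is expressed well beyond steroid tissue. It was the steadiest member, with a 1.47-fold range over the 23 embryos (15.1 to 22.1 CPM). In M-Z- embryos it had 16.1, 18.2, 17.6 and 16.6 CPM in females and 17.7, 18.6 and 22.1 CPM in males. In M+Z+ embryos it ranged from 15.1 through 16.3 to 19.1 CPM in females and was 15.5, 16.2, 18.8 and 18 CPM in males. The log2 change together was 0.11 ± 0.06 (SE, adjusted p 0.315 by edgeR).

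Of the regulators, Nr5a1 had 0.832, 1.21, 1.20 and 2.23 CPM in female M-Z- embryos while female M+Z+ embryos ran from 0.822 through 1.07 to 1.47 CPM. Males had 1.13, 0.978 and 1.84 CPM in M-Z- and 1.08, 1.10, 1.22 and 2.36 CPM in M+Z+ embryos. The male M-Z- embryo with the highest Hsd3b6 had the lowest Nr5a1 of the male embryos, 0.978 CPM. The log2 change together was 0.16 ± 0.22 (SE, adjusted p 0.698 by edgeR). Mc2r rested on 1 to 12 counts per embryo. It had 0.0979, 0.105, 0.0571 and 0.495 CPM in female M-Z- and 0.378, 0.428 and 0.307 CPM in male M-Z- embryos, and ranged from 0.0576 to 0.657 CPM over the M+Z+ embryos. At this depth only a large change in Mc2r could have been seen, and its log2 change together was -0.62 ± 0.40 (SE, adjusted p 0.346).

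Cyp17a1 was male-biased, as described below, and was compared between genotypes in males. It had 0.252, 0.428 and 1.04 CPM (4, 7 and 17 counts) in M-Z- and 1.41, 0.857, 0.988 and 1.44 CPM (34, 14, 17 and 25 counts) in M+Z+ males. The groups overlapped through male M-Z- replicate 3. The log2 change was -1.0 ± 0.46 (SE, unadjusted p 0.0477, adjusted p 0.289 by edgeR), opposite in sign to that of Hsd3b6. It was -0.64 for Cyp17a1 without male M-Z- replicate 1, -0.86 without replicate 2 and -1.71 without replicate 3 (adjusted p 0.467, 0.533 and 0.0544).

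**Figure D2:**
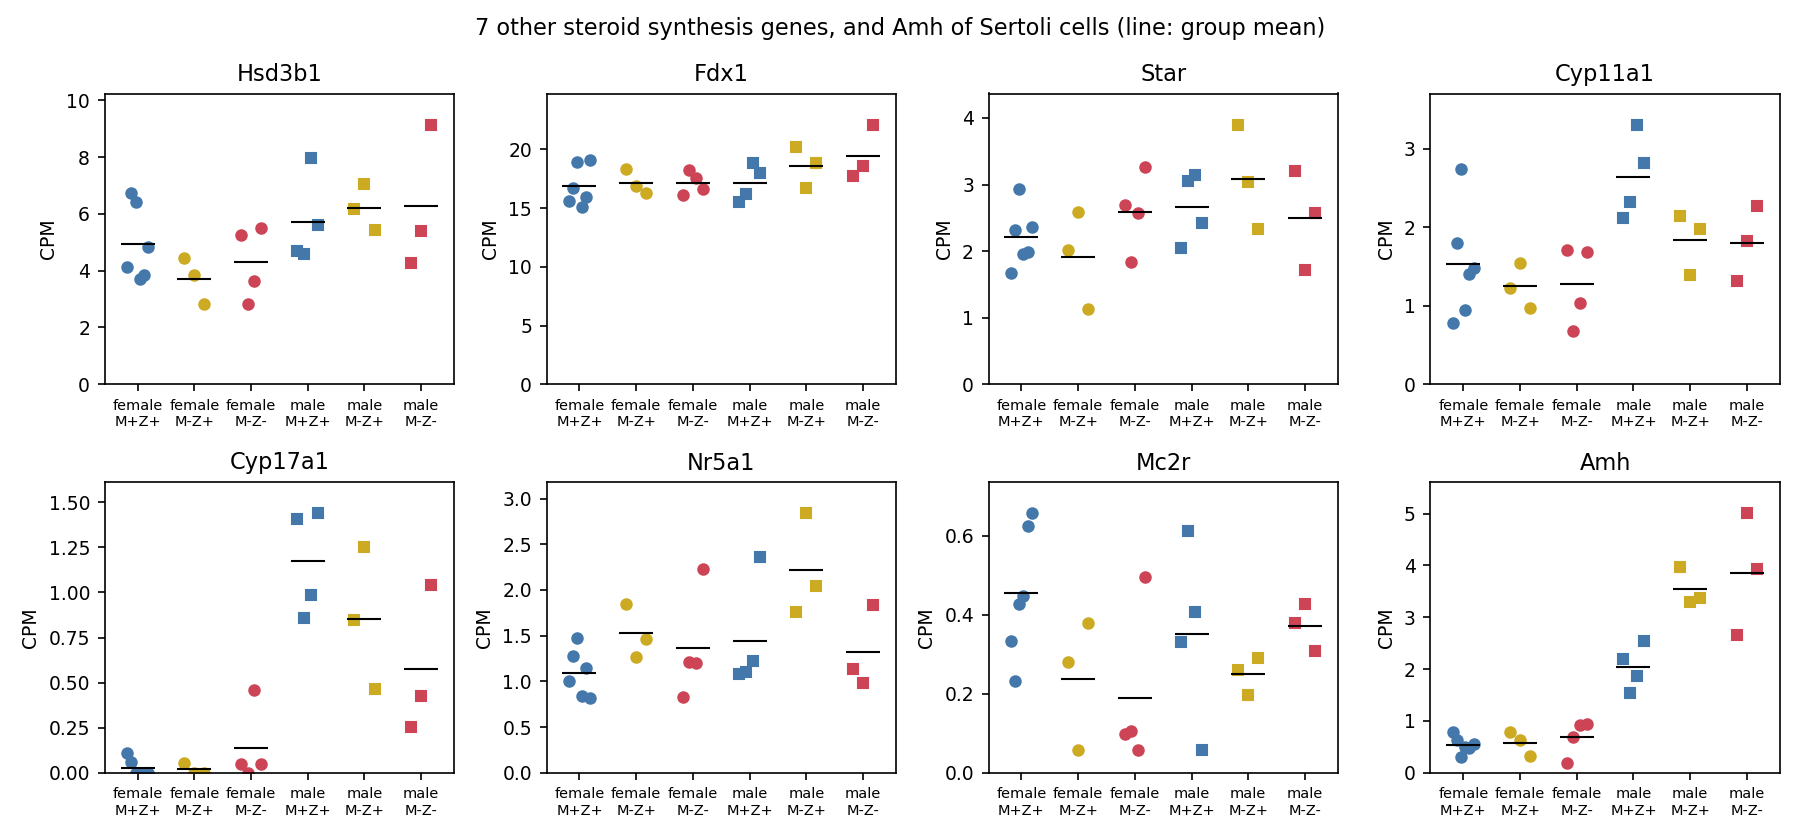
CPM (linear axes from 0) of the 7 other members and of Amh in each embryo of the 6 groups; circles are females, squares are males and lines are group means. Red M-Z- points overlap the blue M+Z+ points of the same sex in each of the 7 members, and Cyp17a1 and Amh are higher in M+Z+ males than in M+Z+ females.

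**Figure D3:**
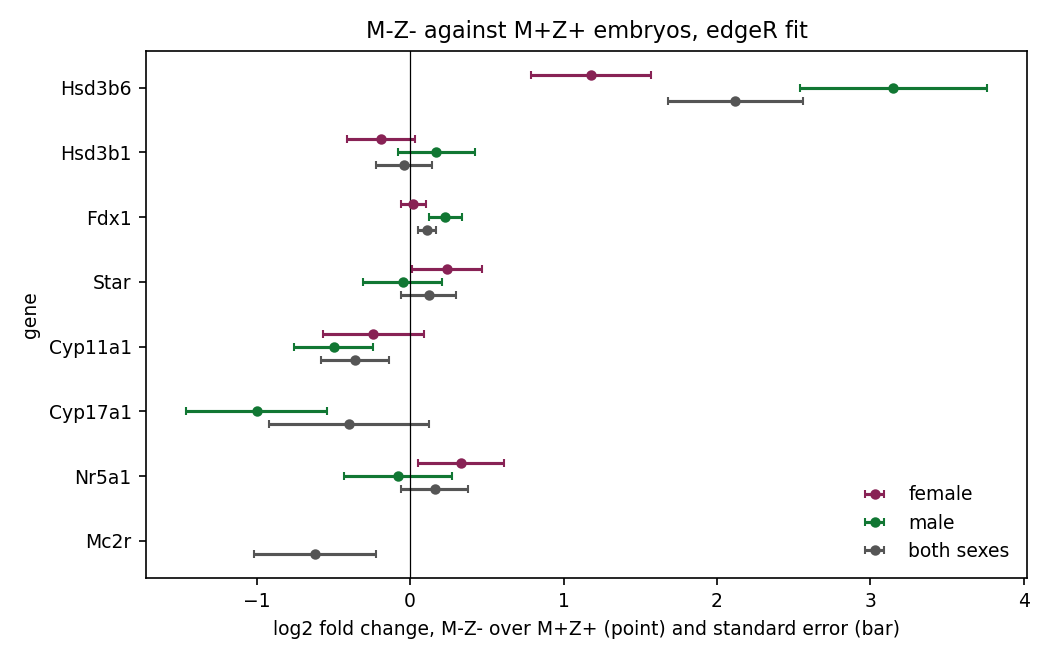
Log2 fold change of M-Z- over M+Z+ (points) with its standard error (bars) for each member in females, males and both sexes as fitted by edgeR; members without a point were not tested in that fit. Hsd3b6 lies at 1.18, 3.15 and 2.12, and the 7 others lie between -1.0 and 0.33.

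A wider list of steroid synthesis and cholesterol supply genes was counted in the same way. Of its 23 genes, 22 were in the tables and 17 were tested with the sexes together. Over all tested genes of this fit, edgeR called 2.19% and 25.4% had an unadjusted p below 0.05. edgeR and DESeq2 each called 0 of the 17, with 6 at an unadjusted p below 0.05, and 12 had a positive change. Their median log2 change was 0.08, beside -0.00 over all tested genes. The adrenal enzymes were scarce. Cyp21a1, which leads to corticosterone and aldosterone, reached at most 1.47 CPM, Cyp11b1 at most 1.65 CPM and Cyp11b2, the aldosterone synthase, at most 0.123 CPM.

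Among 10 genes that control steroid cells, 2 of the 9 tested together were called, both higher in M-Z- embryos. Of all tested genes 2.19% were called in either direction. This list was chosen with earlier results of these data known, so its share is a description and not a test of the list. Gata4, a factor of gonad, heart and gut, rose, with a log2 change of 0.58 ± 0.07 (SE, edgeR adjusted p 3.07e-06). All 7 M-Z- embryos were above all 10 M+Z+ embryos in Gata4, and the share of all tested genes that did so was not counted. Gata6, its relative in adrenal, heart and gut, rose by 0.53 ± 0.07 (SE, adjusted p 3.96e-05), with 1 M-Z- embryo inside the M+Z+ range. Wt1, a gonad and kidney factor, had a change of 0.40 ± 0.07 (adjusted p 0.000986), short of the minimum of 0.5. In females Gata4 had 12.5, 16.5, 13.8 and 14.7 CPM in M-Z- and 8.65 to 10.8 CPM in M+Z+ embryos. No M-Z- female overlapped the M+Z+ females, which held for 2.24% of all tested genes in the higher direction. In M+Z+ males Gata4 had 9.64, 10.1, 9.12 and 9.97 CPM, below all 3 M-Z- males, which held for 4.41% of all tested genes. The embryo with the highest Hsd3b6 had the lowest Gata4 of the male M-Z- group. Pearson's r with Hsd3b6 over the 23 embryos was 0.637 for Gata4 and 0.612 for Gata6, and 0.012 and 0.037 once each group was centred on its mean. The heart muscle gene Myl7 was also called higher in the same fit (0.53 ± 0.11, SE, edgeR adjusted p 0.0044), and below the minimum change without male M-Z- replicate 2 (0.41, adjusted p 0.00983). Myl7 had 21.2, 25.4 and 12.3 CPM in male M-Z- and at most 14.9 CPM in male M+Z+ embryos, and 13.6 to 20.4 CPM in female M-Z- and 11.5 to 13.6 CPM in female M+Z+ embryos. It was likewise below that minimum without male M-Z- replicate 1 or female M-Z- replicate 2. The part of heart tissue in the Gata4 and Gata6 values was not tested. Gata6 itself fell short of the minimum without female M-Z- replicate 2.

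M-Z+ embryos were set beside M+Z+ embryos to ask what loss in the oocyte alone changed. The M+Z+ embryos are those on which Hsd3b6 was chosen, so its log2 change is a description here too, at 0.37 ± 0.45 (SE) in females, 0.18 ± 0.66 in males and 0.24 ± 0.48 together. Of the 7 other members edgeR called 0 of 5 tested in females, where 0.0593% of tested genes were called, 0 of 6 tested in males (0.048%) and 0 of 7 together (0.0759%). At an unadjusted p below 0.05 there was 1 of them, Nr5a1 with the sexes together (0.55 ± 0.22, SE, adjusted p 0.283). DESeq2 called 0 in each and gave no adjusted p to 5 of the 7 in the fit of both sexes. Nr5a1 had 1.85, 1.27 and 1.46 CPM in female and 1.76, 2.84 and 2.04 CPM in male M-Z+ embryos, overlapping the M+Z+ embryos. The M+Z+ embryos are shared with the comparisons of M-Z-.

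The sexes were compared within each genotype, because steroid synthesis starts in the fetal testis at about this stage. In M+Z+ embryos, edgeR (minimum log2 change of 0.3) called 1 of the 8 members, where 0.0817% of all 17139 tested genes were called. This was Cyp17a1, which had 90 counts in the 4 males and 3 counts in the 6 females, 4 of which had 0. The log2 change of males over females was 5.09 ± 0.70 (SE, adjusted p 0.000208). The ratio of the pooled counts per library size was 42.8-fold, with an exact 95% interval of 14.2 to 211 that covers counting error only. The next were Cyp11a1 with 2.12, 2.33, 3.31 and 2.82 CPM in M+Z+ males (log2 change of 0.79 ± 0.28, SE, unadjusted p 0.0097, adjusted p 0.935) and Nr5a1 (0.39 ± 0.29, adjusted p 0.938). In 92 of its 1841 exon bases Cyp17a1 overlaps Gm41857 on the other strand, which did not exceed 0.628 CPM.

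In M-Z+ embryos Cyp17a1 was again the 1 member called (0.222% of all tested genes), with 40 counts in 3 males and 1 count in 3 females. By edgeR the log2 difference was 5.05 ± 1.05 (SE) with an adjusted p of 0.0361. It missed the threshold in 7 of 23 fits that left out an embryo. In M-Z- embryos edgeR called 0 of the 7 other members (0.309% of all tested genes). Of these members 3 had an unadjusted p below 0.05, beside 16.3% of all tested genes. DESeq2 called 0 and gave no adjusted p to 6 of the 7. Cyp17a1 had 28 counts in 3 males and 10 counts in 4 females, of which 8 were in female M-Z- replicate 3. Its log2 change was 2.11 ± 0.73 (SE, edgeR adjusted p 0.142), which passed once male M-Z- replicate 1 was left out (adjusted p 0.0483). The ratio of pooled counts was 4.45-fold (exact interval 2.10 to 10.3). Without female M-Z- replicate 3 that ratio was 17.2-fold (4.34 to 149, on 2 female counts) and the log2 change of Cyp17a1 3.87 (adjusted p 0.0683), and without male M-Z- replicate 3 they were 2.63-fold (1.02 to 6.92) and 1.39 (adjusted p 0.363).

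Amh, the Sertoli cell hormone of the fetal testis, served as a gonad marker. It was higher in males in M+Z+ (log2 change of 1.90 ± 0.31, SE, adjusted p 0.00257 by edgeR), M-Z+ (2.60 ± 0.38, adjusted p 0.000769) and M-Z- embryos (2.54 ± 0.33, adjusted p 0.000141). DESeq2 called Amh in M+Z+ embryos and gave it no adjusted p in M-Z+ and M-Z- embryos. Males and females did not overlap in any genotype. In that direction this held for 0.601% of all tested genes in M+Z+ and 3.68% in M-Z- embryos. The share in M-Z+ embryos was not counted. Amh was the 1 gene edgeR called of 7 tested Sertoli cell markers in each genotype. Of all tested genes 0.0817% were called in M+Z+, 0.222% in M-Z+ and 0.309% in M-Z- embryos. Of the 7 markers, 4 were higher in M+Z+ males (median log2 change 0.03), 5 in M-Z+ males (0.17) and 5 in M-Z- males (0.12). Dppa3, a germ cell gene, was also higher in M+Z+ (3.19 ± 0.56, adjusted p 0.00846 by edgeR) and M-Z+ males (4.07 ± 0.83, adjusted p 0.0352). In M-Z- embryos its change was 1.65 ± 0.65 (adjusted p 0.198) and was not called. Of 6 tested germ cell markers edgeR called Dppa3 alone in M+Z+ and in M-Z+ embryos, and 0 in M-Z- embryos. The markers with a positive change numbered 5, 4 and 3. The M+Z+ call was lost without male M+Z+ replicate 1 (adjusted p 0.11) and the M-Z+ call in 5 of 23 fits without an embryo (any M-Z+ male, or female M-Z+ replicate 1 or 3, adjusted p up to 0.208). For Dppa3, DESeq2 made the call in M+Z+ and gave no adjusted p in M-Z+ and M-Z- embryos. In M-Z- males Amh had 2.65, 5.01 and 3.93 CPM, and in M-Z- females 0.196, 0.683, 0.914 and 0.940 CPM. The embryo with 226 CPM of Hsd3b6 was the one with 5.01 CPM of Amh, and it had 0.428 CPM of Cyp17a1, 1.83 CPM of Cyp11a1 and 1.71 CPM of Star.

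An interaction term tested whether the M-Z- effect was unequal in females and males. edgeR called 0 of 17139 genes (0% called, 1107 at an unadjusted p below 0.05, lowest adjusted p 0.725), and so 0 of the 7 other members. The smallest unadjusted p among these was that of Cyp17a1 (-2.98 ± 1.18, SE, p 0.0189, adjusted p 0.725 by edgeR). For Hsd3b6, which was selected on the M-Z- embryos, the estimate was 1.96 ± 0.78 (SE), and 0.59 ± 0.68 without male M-Z- replicate 2, given as a description.

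The genes whose levels followed Hsd3b6 most closely were then listed, by Pearson's r of log2(CPM + 1) over the 23 embryos among the 15503 genes that averaged 1 CPM or more. The embryos share group, library and depth, so r is a description. The 3 closest were the embryonic globins Hbb-bh1 (r = 0.987), Hba-x (0.981) and Hbb-y (0.980), the globin chains of the primitive red cells that form in the yolk sac. No other gene had r above 0.95. Next came Pdzk1ip1 (0.937), Ackr3 (0.911), Rcor2 (0.909), Twist1 (0.903), Rara (0.897), Eno1b (0.894) and Trib3 (0.893). Without male M-Z- replicate 2 the 3 globins stayed the closest, at 0.984, 0.973 and 0.966. They were also the top 3 within females, within males and after each group was centred on its mean, while of the 10 genes named 4 remained in the top 10 without that embryo.

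None of the 7 other members had a positive r. Pearson's r over the 23 embryos was -0.08 for Fdx1, -0.09 for Mc2r, -0.13 for Cyp17a1, -0.27 for Nr5a1, -0.32 for Star, -0.42 for Hsd3b1 and -0.47 for Cyp11a1. Without male M-Z- replicate 2 these lay between -0.668 and -0.188. In the wider steroid and cholesterol supply list r was higher for Soat1, which esterifies cholesterol (0.751, rank 169), and Por, the electron donor of microsomal P450 enzymes (0.693, rank 357). The lowest of that list among genes averaging 1 CPM or more was Tspo (-0.423). Without male M-Z- replicate 2 Soat1 had 0.622 and Por 0.546, while Hsd11b2, which inactivates glucocorticoids, went from 0.421 to 0.799.

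**Figure D4:**
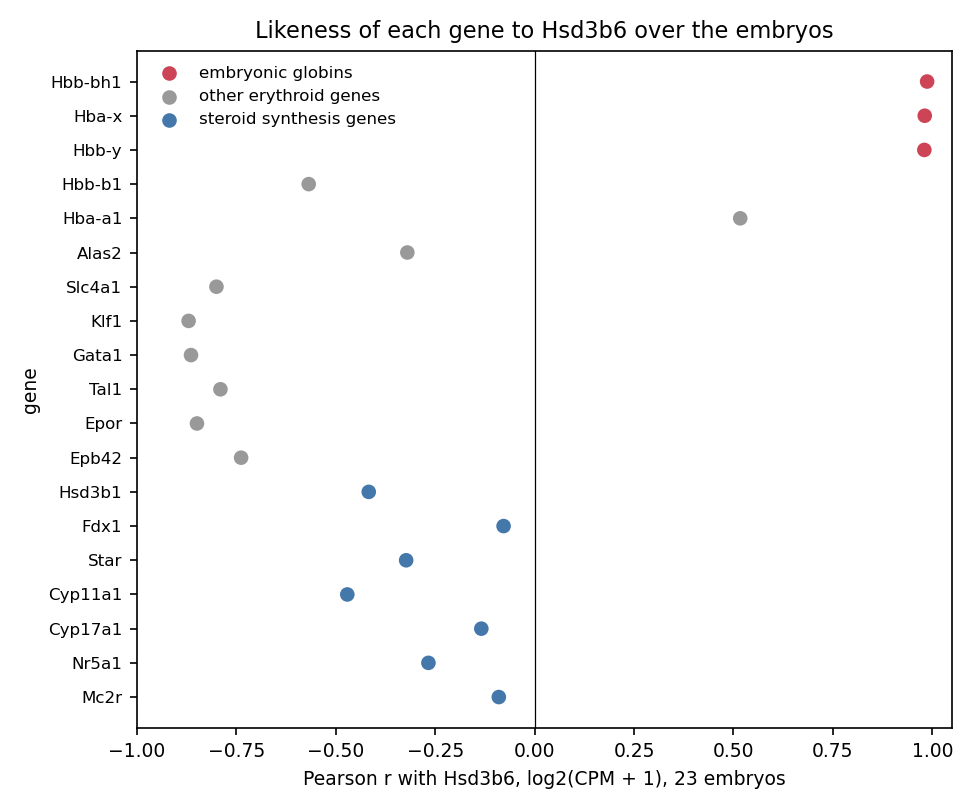
Pearson's r of each gene with Hsd3b6 over the 23 embryos, from log2(CPM + 1), for the embryonic globins (red), other erythroid genes (grey) and the 7 steroid genes (blue). The 3 embryonic globins lie at 0.980 to 0.987 and the steroid genes between -0.47 and -0.08.

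The shared spread can be read embryo by embryo. Summed over the 3 embryonic globins, the lowest embryo was male M+Z+ replicate 3 with 1086 CPM and the highest male M-Z- replicate 2 with 24454 CPM, the same embryos that were lowest and highest in Hsd3b6. Female M+Z+ replicate 4, which had the highest Hsd3b6 of the M+Z+ embryos, also had their highest globin sum, 7482 CPM. The globin sum varied 22.5-fold and Hsd3b6 44.1-fold, while the number of Hsd3b6 reads per 1000 embryonic globin reads varied 2.45-fold, from 3.77 to 9.23.

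This ratio differed in level between genotypes when the summed globins were the reference. Females averaged 4.51 ± 0.55 (M+Z+, SD, n = 6), 6.12 ± 0.924 (M-Z+, n = 3) and 6.56 ± 1.06 (M-Z-, n = 4). Males averaged 4.74 ± 0.572 (M+Z+, n = 4), 5.38 ± 0.476 (M-Z+, n = 3) and 7.72 ± 1.51 (M-Z-, n = 3), the last being 6.97 without replicate 2. Male M-Z- embryos had 7.74, 9.23 and 6.20 against 4.50, 4.22, 4.71 and 5.55 in M+Z+ males, with no overlap. Female M-Z- embryos had 6.07, 7.18, 7.67 and 5.31, overlapping the M+Z+ range of 3.77 to 5.33 in 1 embryo. The separation depended on the reference globin in both sexes. Per 1000 reads of Hbb-bh1, the globin closest to Hsd3b6, male M-Z- embryos had 291, 424 and 340 and male M+Z+ embryos 269, 265, 256 and 317, which overlap. Per 1000 reads of Hbb-y they had 8.74, 10.4 and 6.85 against 4.62 to 6.07, and per 1000 reads of Hba-x 87.5, 101 and 81.3 against 55.1 to 80.5, with no overlap. Female M-Z- embryos had 5.95 to 8.86 per 1000 reads of Hbb-y against 4.19 to 5.90 in M+Z+ females, with no overlap. Female values overlapped per 1000 reads of Hbb-bh1 (244 to 323 against 192 to 278) and of Hba-x (60.1 to 72.8 against 46.3 to 69.4). Hsd3b6, which the ratio counts, was chosen for its higher counts in some M-Z- embryos, so these differences between genotypes are a description. The ratio was chosen after the likeness to globins had been seen and was not tested.

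**Figure D5:**
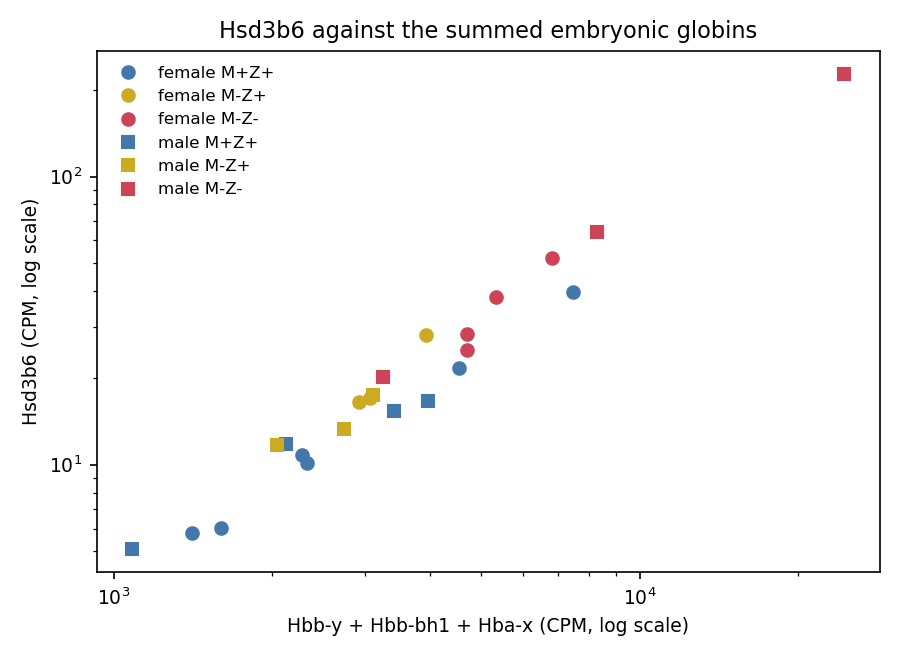
Hsd3b6 against the sum of Hbb-y, Hbb-bh1 and Hba-x in each embryo, both in CPM on log axes, coloured by genotype with circles for females and squares for males. The points rise together from 5.11 and 1086 CPM to 226 and 24454 CPM.

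Other red cell genes had lower r with Hsd3b6. Hba-a1, the adult alpha globin, had r = 0.517 over all embryos and 0.269 without male M-Z- replicate 2, and the adult beta globin Hbb-b1 had -0.568 and -0.678. Genes of transcription factors and the erythropoietin receptor of red cell precursors were negative, with -0.87 for Klf1, -0.864 for Gata1, -0.849 for Epor and -0.79 for Tal1, and between -0.770 and -0.634 without that embryo. The red cell membrane genes Slc4a1 and Epb42 had -0.80 and -0.738, and Alas2, of heme synthesis, had -0.32. Klf1, a factor needed for adult globin expression, had 51.0, 17.5 and 85.0 CPM in male M-Z- embryos, in which Hsd3b6 was 64.2, 226 and 20.1 CPM. These erythroid genes were picked after the globins had been seen.

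Because Hsd3b6 is known from trophoblast, markers of placenta and decidua were examined for tissue left at dissection. Of 48 trophoblast and placenta markers in the tables, 17 (prolactin family genes, placental cathepsins and pregnancy-specific glycoproteins) had 0 counts in all 23 embryos, and 44 stayed below 1 CPM in every embryo. The others were Plac1, Ascl2, Hand1 and Pappa2. The summed level was 32.3 to 42.8 CPM in female M+Z+ and 22.9 to 35.3 CPM in female M-Z- embryos. Male embryos had 35.9 to 45.0 CPM in M+Z+ and 30.8 to 37.2 CPM in M-Z- embryos. Most of it was Pappa2, a protease gene also expressed in the embryo. Without Pappa2 the sum was 4.24 to 5.70 CPM in male M+Z+ and 5.77 to 8.63 CPM in male M-Z- embryos, with no overlap. In females it was 4.53 to 6.13 CPM in M+Z+ and 4.15 to 6.02 CPM in M-Z- embryos, which overlap.

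Within this sum, Ascl2, an imprinted trophoblast factor, had 1.01, 2.20 and 0.675 CPM in male M-Z- and 0.291, 0.245, 0.174 and 0.288 CPM in male M+Z+ embryos. Female M-Z- embryos had 0.440, 0.421, 0.228 and 0.297 CPM, inside the female M+Z+ range of 0.164 to 0.638 CPM. With the sexes together edgeR put Ascl2 at 1.36 ± 0.41 (SE, adjusted p 0.0337), the 1 trophoblast marker called of 5 tested, beside 2.19% of all tested genes. The call was lost in 5 of 23 fits without an embryo. These left out male M-Z- replicate 2 (0.88, adjusted p 0.143), male M-Z- replicate 1 or male M+Z+ replicate 1, 2 or 3. In males alone Ascl2 was 2.38 ± 0.53 (adjusted p 0.0831 by edgeR, 0.015 by DESeq2). Over the tested trophoblast markers edgeR gave an unadjusted p below 0.05 to 2 of 5 together, 3 of 4 in males and 1 of 4 in females. The shares of all tested genes were 25.4%, 17.0% and 15.5%. Positive changes numbered 3, 3 and 1 in the same order, with median log2 changes of 0.17, 0.52 and -0.16. The 3 decidua markers together did not exceed 0.448 CPM in any embryo. For the yolk sac endoderm the list is shared with fetal liver through Afp, which fell by 0.60 ± 0.16 with the sexes together (SE, adjusted p 0.0166), while its sum was 1000 to 2427 CPM in male M-Z- and 2410 to 3257 CPM in male M+Z+ embryos. Afp had r = -0.939 with Hsd3b6 over the 23 embryos and Alb, the liver albumin gene, -0.933, ranks 15497 and 15496 of 15503. Without male M-Z- replicate 2 these were -0.916 and -0.930.

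A list of embryo organ markers had 3 of 6 genes called between M-Z- and M+Z+ embryos with the sexes together, by edgeR and by DESeq2. Over all tested genes edgeR called 2.19%. The list was chosen with earlier results of these data known, so its share of called genes is a description and not a test of the list. Alb fell by 0.98 ± 0.21 on the log2 scale (SE, edgeR adjusted p 0.00415), and held in all 23 fits without an embryo. In males Alb had 629, 542 and 1542 CPM in M-Z- and 1789, 1798, 2778 and 1709 CPM in M+Z+ embryos. All 3 were below the lowest M+Z+ male, and the share of all tested genes that lay lower in this way was not counted. In females Alb had 1092, 814, 749 and 1477 CPM in M-Z- and 1270 to 2933 CPM in M+Z+ embryos. The others were Myl7, given above, and the embryonic globin Hbb-y (1.39 ± 0.37, SE, adjusted p 0.0185), whose call was lost without male M-Z- replicate 2 (0.82, adjusted p 0.0706). The part of tissue makeup, stage or dissection in the Hsd3b6 values was not tested.

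The gonad, germ cell and adrenal lists gave no members that edgeR called between M-Z- and M+Z+ embryos with the sexes together, a comparison in which 2.19% of all tested genes were called and 25.4% had an unadjusted p below 0.05. edgeR called 0 of 8 fetal Leydig cell markers (1 at an unadjusted p below 0.05, DESeq2 0), 0 of 7 Sertoli cell markers (2, DESeq2 1), 0 of 6 fetal ovary markers (3, DESeq2 0) and 0 of 6 germ cell markers (0, DESeq2 0). The Sertoli cell gene that DESeq2 called was Amh (0.69 ± 0.24, SE, adjusted p 0.0374, and 0.97 ± 0.28 with 0.0365 in males alone). For Amh edgeR gave 0.70 ± 0.23 (adjusted p 0.0567) together and 0.97 ± 0.25 (adjusted p 0.117) in males, and 0.53 (adjusted p 0.179) together without male M-Z- replicate 2. It called Amh together in 4 of 23 fits without an embryo. For the adrenal lists it called 0 of 7 adrenal cortex markers (0, DESeq2 0) and 0 of 6 adrenal medulla markers (3, DESeq2 0). The adrenal cortex sum was 4.65 to 9.24 CPM in female M+Z+, 5.77 to 8.95 CPM in female M-Z-, 4.82 to 9.07 CPM in male M+Z+ and 4.46 to 9.26 CPM in male M-Z- embryos. These ranges overlapped, and the ranges of the fetal Leydig sum did so within each sex, at 28.5 to 36.9 CPM in male M+Z+ and 31.5 to 40.0 CPM in male M-Z- embryos.

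For 19 embryos, reads assigned to an allele could be matched by name. Over them Hsd3b6 had 3470 reads, all on the maternal (129) allele, from 30 to 1176 per embryo, and 0 paternal reads allows a share of up to 0.0865%. This covers embryos of each genotype. Among 6475 genes outside X and Y with a mean of at least 20 allele reads, 103 (1.59%) also had 0 paternal reads and 47 (0.726%) had 0 maternal reads. The median gene had 49.7% paternal reads. With 1 direction of the cross, parent of origin and strain cannot be told apart, and neither can a failed assignment of DBA reads at this gene. Hba-x had 47.3% and Hbb-bh1 85.0% paternal reads over the same embryos. Of the other members, Mc2r had 39 allele reads, of which 22 were paternal and 17 maternal (56.4% paternal, exact 95% interval 39.6 to 72.2%). Hsd3b1 had 2 allele reads and Star, Cyp11a1, Cyp17a1, Nr5a1 and Fdx1 had 0, so the alleles of these genes were not described.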

How the data were processed

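RNA-seq was measured in 23 E13.5 embryos, 1 library each. The deposited tables hold raw counts per gene, which the authors made with Trim Galore, STAR 2.7.8a on mm9 (unique reads, end to end) and featureCounts of Subread 2.0.1 with a strand-specific setting, a read over several genes counting for each. Deposited allele counts were made by the authors with SNPs called by GATK and split by SNPsplit. Another deposited column is the exon length, used for values per kilobase. Allele columns that share a header (8) were not used.

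Counts were tested with edgeR 4.0.16 in R 4.3.3 (quasi-likelihood test, TMM, filterByExpr, Benjamini-Hochberg over all tested genes) and checked on simulated data. Genotypes were compared with the 3 genotypes of a sex in a shared fit, and with sex as a covariate over all embryos. The sexes and the interaction were fitted on 6 group means. DESeq2 1.42.0, RLE scaling, no filter on low counts, a robust fit, left-out embryos, a replicate block, no minimum change, only M+Z+ embryos numbered 4 and above, and 2-group fits were alternatives. Embryos are taken as separate animals, and litter is not given.

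Genes were named as members, as listed markers or as the 10 most like Hsd3b6. The members and lists were chosen with earlier results of these data known, and some listed genes are not reported here. CPM used the deposited library totals. Limits and intervals (95%) cover counting error only, since reads carry no molecular identifiers.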

Additional observations from a re-analysis of the deposited data

Results flagged for a closer look

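Among 33 groups of 4 to 10 embryos checked for the members and related genes, 3 had an embryo far from the others, where chance alone gives about 1 in 20. Cyp17a1 in female M-Z- replicate 3 was at 0.457 CPM (8 counts), and the others of its group lay between 0 and 0.0495 CPM. Nr5a1 in male M+Z+ replicate 4 was at 2.36 CPM, beside 1.08 to 1.22 CPM in the others. Mc2r in female M-Z- replicate 4 was at 0.495 CPM, beside 0.0571 to 0.105 CPM in the others. Groups of 3, such as the male M-Z- embryos, were not checked in this way.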

How the results depend on the processing

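With only M+Z+ embryos numbered 4 and above, 1 M+Z+ male is left, assumed to vary like the other groups. Replicate numbers did not pair the embryos (correlations of same-numbered embryos from -0.239 to 0.396). With a replicate block, 0 members were called between the sexes in M-Z+ embryos (Cyp17a1 5.08, adjusted p 0.0661), and DESeq2 gave it no adjusted p. Among Amh, Dppa3, Ascl2, Gata4, Gata6, Alb, Afp, Myl7 and Hbb-y, the calls that were lost under the block were the sex difference in M+Z+ embryos of Amh (1.84, adjusted p 0.13) and of Dppa3 (3.43, adjusted p 0.168), and Ascl2 between M-Z- and M+Z+ embryos together (1.22, adjusted p 0.078). The same held for Dppa3 between the sexes in M-Z+ embryos (4.03, adjusted p 0.0646), and between M-Z- and M+Z+ embryos for Gata4 in females (0.49, adjusted p 0.205) and Gata6 in males (0.61, adjusted p 0.0509). In males alone the calls of Gata4 and Gata6 were also lost when M-Z+ males were kept out of the fit (0.65 and 0.58, adjusted p 0.0531 and 0.117) and with only M+Z+ embryos numbered 4 and above (0.64 and 0.50, adjusted p 0.999 in both). Leaving out single embryos ended the call of Gata4 in 3 of 13 female and 1 of 10 male fits, and that of Gata6 in 4 of 10 male fits. Leaving out single embryos, 0 to 1 members were called between the sexes in M-Z+ and in M-Z- embryos. Cyp17a1 in M-Z+ then ranged from 4.57 to 6.90 (adjusted p 0.0139 to 0.214), and missed the threshold on leaving out any M-Z+ embryo (6 fits) or male M+Z+ replicate 1. In M-Z- embryos it ranged from 1.39 to 3.87 and was called without male M-Z- replicate 1 (2.47, adjusted p 0.0483).

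No log2 change that turned its sign had been called. With only M+Z+ embryos numbered 4 and above, M-Z- changes were 0.08 for Hsd3b1 and 0.02 for Cyp11a1 in females, 0.10 for Star in males and 0.11 for Hsd3b1 together. M-Z+ changes were -0.10 for Nr5a1 in males and -0.19 for Hsd3b6 together. With the block, Nr5a1 was 0.22 in male M-Z- embryos and 0.17 between M-Z- sexes. With DESeq2, Cyp17a1 was 0.35 in M-Z- embryos together.

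Leaving out single embryos, M-Z- changes ranged in females from -0.41 to 0.00 for Cyp11a1, -0.03 to 0.51 for Nr5a1 and -0.02 to 0.05 for Fdx1. In males they ranged from -0.17 to 0.40 for Hsd3b1, -0.25 to 0.13 for Star and -0.37 to 0.24 for Nr5a1, and together from -0.18 to 0.05 for Hsd3b1 and -0.06 to 0.29 for Nr5a1. M-Z+ changes ranged in females from -0.50 to 0.06 for Star and -0.04 to 0.05 for Fdx1, in males from -0.07 to 0.36 for Hsd3b6, and together from -0.02 to 0.60 for Hsd3b6 and -0.13 to 0.15 for Star. Between the sexes they ranged in M+Z+ from -0.53 to 0.18 for Hsd3b6 and -0.03 to 0.06 for Fdx1, in M-Z+ from -0.39 to 0.53 for Mc2r, and in M-Z- from -0.23 to 0.15 for Star and -0.33 to 0.32 for Nr5a1. With only M+Z+ embryos numbered 4 and above, Gata6 together was 0.49 (adjusted p 0.0127), below the minimum change. The cause of these shifts was not tested.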
